A study of Mus musculus with 26 samples.

Results

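The MiT family of transcription factors has 4 members in the mouse, Mitf, Tfeb, Tfe3 and Tfec. They were taken by gene symbol, not by any measured value, and all 4 were found among the 52636 genes measured. Earlier results of these data were known when the family was chosen. RNA sequencing was analysed in 26 libraries from wild-type and Prss57-/- mice, in which exon 2 of the gene of Neutrophil Serine Protease 4 (NSP4) is deleted in the germline (a line made in C57BL/6N embryonic stem cells). Common myeloid progenitors (CMPs) and granulocyte-macrophage progenitors (GMPs) were sorted from bone marrow as lineage-negative, SCA-1-, CD117+ and CD34+ cells, with low CD16/32 for CMPs and high CD16/32 for GMPs. There were 4 wild-type and 4 Prss57-/- libraries of each. Bone marrow-derived mast cells (BMMCs) were grown from sorted GMPs with IL-3 and SCF, with 5 libraries of each genotype, and their labels add P3, which is not explained there. All progenitors were labelled female and shared 1 run identifier, whereas all BMMCs were labelled male with a second identifier. A difference of BMMCs from progenitors therefore cannot be told apart from one of sex or run, and Tfe3 is X-linked. Controls were age-matched littermates, and ages were not given in the labels.

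MiT proteins are basic helix-loop-helix leucine zipper factors that bind DNA as homodimers or as heterodimers with each other, at E-box motifs. MITF is required for mast cells and pigment cells and activates genes of mast cell granules. TFEB and TFE3 are held in the cytoplasm by mTORC1, through Rag GTPases and folliculin at the lysosome, and when released they activate lysosomal and autophagy genes with the CLEAR motif. TFEC is best known from macrophages. RNA levels do not show where these proteins are in the cell.

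Promoters that hold MiT-type E-boxes are shown here because the genes behind them differ between cell types below. The motifs searched were CACGTG, which reads the same on both strands and is the core of the CLEAR motif, and TCATGTG, with its reverse complement CACATGA, the form known from pigment cell promoters. Neither contains the other. RefSeq promoters (GRCm38.p6, 250 bases before to 50 bases after the start) were used, and CACGTG was in 7.15% and TCATGTG in 3.77% of all 32851. Among the CLEAR genes, 35 of 45 had an entry, and CACGTG was in 16 of their 39 promoters. These are the 5 that were most strongly raised in wild-type BMMCs over GMPs among those with CACGTG, in windows of 60 bases with the motif in capitals:
Ctsd: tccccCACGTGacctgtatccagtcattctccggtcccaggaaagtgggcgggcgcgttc
Rragc: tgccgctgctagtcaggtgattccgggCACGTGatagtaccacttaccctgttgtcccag
Clcn7: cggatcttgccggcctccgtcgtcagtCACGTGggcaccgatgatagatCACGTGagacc
Lamp1: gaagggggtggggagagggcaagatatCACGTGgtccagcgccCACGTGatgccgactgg
Cln3: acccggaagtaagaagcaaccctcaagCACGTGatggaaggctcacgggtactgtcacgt
They lie at chr7:142388018-142388077 (minus strand), chr4:123917294-123917353 (plus), chr17:25133349-25133408 (plus), chr8:13159073-13159132 (plus) and chr7:126583353-126583412 (minus). The promoters of Lamp1, Ctsd, Clcn7 and Cln3 held 4, 2, 2 and 2 matches in all.

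TCATGTG was in 4 of the 5 promoters of pigment cell genes and in 1 of the 11 promoters of mast cell genes listed as activated by MITF. Tyr, the tyrosinase of melanin synthesis, and Hpgds, the prostaglandin D synthase of mast cells, are shown because the same letters stand before a gene with no read in any library and before one that is high in BMMCs:
Tyr: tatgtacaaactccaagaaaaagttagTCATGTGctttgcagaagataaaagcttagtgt
Hpgds: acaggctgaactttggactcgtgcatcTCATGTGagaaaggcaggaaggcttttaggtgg
The windows are chr7:87493502-87493561 and chr6:65144779-65144838, both on the minus strand. Neither motif was in the 9 promoters of the MiT genes, and CACGTG was in none of the 11 promoters of the mast cell genes. A match is only a match of letters in this window.

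In GRCm38 with GENCODE M21, Mitf is at chr6:97807052-98021349 (plus strand), Tfeb at chr17:47737030-47792419 (plus), Tfe3 at chrX:7762560-7775202 (plus) and Tfec at chr6:16833373-16898441 (minus). No other gene shared an exonic base with any of them.

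The libraries were checked first. Prss57, the targeted gene, had 12963 reads over the wild-type CMP libraries and 4 over the Prss57-/- CMP libraries, and 86420 and 74 in GMPs. In BMMCs, with 52 and 0 reads, it was too low to check the labels. In each cell type 1 library lay apart by its mean correlation with the others of its type. Prss57-/- BMMC library 3 had a mean r of 0.819, against 0.962 to 0.972 for the other 9. Prss57-/- CMP library 2 had 0.897 and wild-type GMP library 1 had 0.957, the lowest of their cell types, and Prss57-/- CMP library 1, which was kept, had 0.914. Mast cell markers were summed at 25513 to 75392 normalized RPKM in BMMCs, against 465 to 703 in GMPs and 150 to 174 in CMPs. The other 9 BMMC libraries also held 696 to 1114 normalized RPKM of 6 macrophage markers (Adgre1, Csf1r, Cd68, Mertk, C1qa and Mrc1) and 710.5 to 1562 of 6 dendritic cell markers. The dendritic cell sum was mostly Cd74 (589 to 1317), with H2-Ab1 at 94.9 to 202 and Itgax at 26.4 to 69.0. In these libraries Zbtb46 was 0.30 to 0.90, Flt3 0.066 to 0.33 and Xcr1 0 to 0.010. The same 9 BMMC libraries held 822 to 1160 of megakaryocyte markers, mostly Pf4 (497 to 826) and Itga2b (222 to 414). They also held 457 to 835 of basophil and 439 to 1088 of neutrophil granule markers, the latter mostly Ctsg (432 to 1084). The GMPs held 1637 to 2499 of 3 basophil, 1171 to 4253 of eosinophil and 26461 to 39673 of neutrophil granule markers. The CMPs held 604 to 1193 of erythroid, 802 to 2793 of megakaryocyte and 3897 to 9979 of neutrophil granule markers.

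The 4 genes were each distributed over the cell types in a different way. Values are normalized RPKM, the authors' reads per length and depth, scaled by size factors. Mitf was low in progenitors and high in BMMCs. Mitf was 0.43, 0.27, 0.41 and 0.36 in the wild-type CMP libraries and 1.11, 0.90, 0.86 and 1.22 in the wild-type GMP libraries. In the 5 wild-type BMMC libraries it was 24.7, 29.9, 27.7, 30.2 and 26.5. The 3 cell types did not overlap. The Prss57-/- libraries gave 0.43, 0.14, 0.60 and 0.55 in CMPs, 1.26, 1.00, 1.42 and 0.98 in GMPs, and 30.3, 28.4, 34.1, 23.9 and 28.9 in BMMCs, with the same separation.

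Tfeb, the lysosomal regulator, spanned the narrowest range. It was 2.70, 2.77, 3.25 and 3.56 in wild-type CMPs, 4.02, 5.55, 5.73 and 5.77 in GMPs, and 5.82, 4.89, 7.20, 6.74 and 6.68 in BMMCs. GMPs lay above CMPs in every library, and BMMCs overlapped GMPs. The Prss57-/- values were 4.17, 1.38, 3.97 and 3.16 in CMPs, 5.18, 4.51, 6.55 and 5.02 in GMPs, and 6.96, 9.62, 1.38, 7.50 and 10.5 in BMMCs. CMP library 2 and BMMC library 3, both lying apart from their groups, were the lowest of all.

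Tfe3, which acts with Tfeb on lysosomal genes, overlapped between the progenitors and was higher in BMMCs. It was 7.69, 7.08, 9.30 and 8.45 in wild-type CMPs, 4.43, 8.18, 9.56 and 9.10 in GMPs, and 30.9, 28.4, 33.5, 30.6 and 33.2 in BMMCs. The Prss57-/- values were 11.2, 5.93, 5.97 and 7.01 in CMPs, 7.88, 7.40, 9.47 and 7.71 in GMPs, and 30.3, 33.0, 19.5, 34.3 and 35.4 in BMMCs. CMPs and GMPs overlapped, and no BMMC library came down to a progenitor library.

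Tfec was highest in GMPs. It was 16.2, 23.9, 18.4 and 26 in wild-type CMPs, 81.1, 67.2, 66.0 and 69.2 in GMPs, and 38.2, 30.8, 44.0, 40.6 and 48.6 in BMMCs. The 3 cell types did not overlap in wild-type libraries. The Prss57-/- values were 18.6, 30.4, 31.5 and 31.4 in CMPs, 66.6, 66.2, 74.2 and 80.1 in GMPs, and 35.1, 36.1, 3.73, 45.7 and 52.3 in BMMCs. Without BMMC library 3, at 3.73, the same order held there too.

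**Figure D1:**
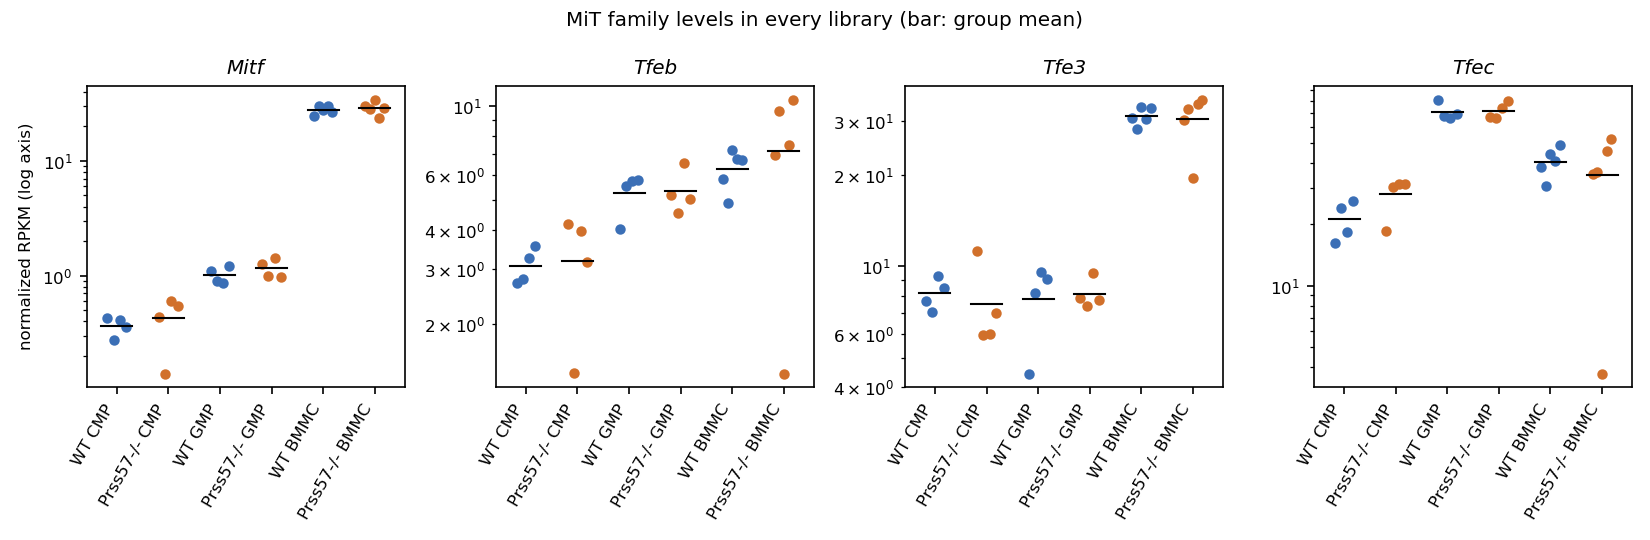
Normalized RPKM (log axis, a scale for each gene) of Mitf, Tfeb, Tfe3 and Tfec in every library, with wild-type in blue, Prss57-/- in orange and black bars for group means. Mitf rises from CMPs to GMPs to BMMCs, Tfec peaks in GMPs, and single Prss57-/- libraries lie far below their group for Tfeb (1.38 in CMPs and BMMCs) and Tfec (3.73 in BMMCs).

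Levels of different genes can be compared only per length. On the normalized RPKM, Tfec made up 83.4% of the family total in wild-type GMPs and 64.6% in wild-type CMPs, and Mitf 1.2% and 1.13%. In wild-type BMMCs the order was Tfec (40.4 ± 6.66 (SD, n = 5)), Tfe3 (31.3 ± 2.08), Mitf (27.8 ± 2.33) and Tfeb (6.27 ± 0.916). Tfe3 and Mitf were close, and the order depended on the length used. On CPM per kilobase of merged GENCODE exons, an alternative chosen after the data were seen, it was Mitf at 22.5, Tfec at 12.2, Tfe3 at 11.5 and Tfeb at 4.18, with Mitf 44.6% of the total. Tfec remained first in GMPs and CMPs on both scales, and Mitf last.

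GMPs were compared with CMPs to ask how the family differs between progenitors before mast cell differentiation. Mitf, Tfeb and Tfec were higher in GMPs in both genotypes, and Tfe3 did not pass the test in either. By the quasi-likelihood test of edgeR, adjusted by Benjamini-Hochberg, 27.9% of the 15900 genes tested passed an adjusted p of 0.05 in wild-type cells, with 15.4% higher and 12.5% lower, and 35.7% in Prss57-/- cells, with 16.9% higher and 18.8% lower. Of the 4 members, 3 passed in each, all higher. For Mitf the log2 fold change was 1.52 ± 0.32 (SE, adjusted p = 0.0022) in wild-type and 1.48 ± 0.32 (adjusted p = 0.0026) in Prss57-/- cells. For Tfec it was 1.79 ± 0.17 (adjusted p = 1.7e-06) and 1.42 ± 0.17 (adjusted p = 1.64e-05). For Tfeb it was 0.83 ± 0.27 (adjusted p = 0.030) and 0.79 ± 0.27 (adjusted p = 0.031), and this call was lost under library-size scaling (adjusted p = 0.129 and 0.122), with no filter on low counts (adjusted p = 0.051 and 0.051) and with all 26 libraries in 1 fit (adjusted p = 0.107 and 0.101). In Prss57-/- cells it was also lost when only its 2 groups were fitted (adjusted p = 0.110). For Tfe3 the value was -0.01 (95% interval -0.52 to 0.51) and 0.16 (-0.35 to 0.68). The difference between genotypes was not called for any member by edgeR, with intervals of -0.98 to 0.91 for Mitf, -0.83 to 0.76 for Tfeb, -0.56 to 0.90 for Tfe3 and -0.88 to 0.14 for Tfec. Of 15900 genes edgeR called 0%, limma voom and DESeq2 called 0, and voom with sample weights called 1, and 169 (1.06%) had an unadjusted p under 0.05 in edgeR.

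The exact two-sided permutation test on normalized RPKM gave p = 0.0286 for Mitf, Tfeb and Tfec in both genotypes, the smallest p that 4 libraries against 4 allow, unadjusted. This test was run on the 4 members only. The share of all genes that would reach the same p is therefore not known. In bulk samples, fewer cells of a type and less RNA per cell cannot be told apart. Markers of other cell types moved with the same comparison. Of all genes 15.4% were higher and 12.5% lower in wild-type GMPs, and 16.9% and 18.8% in Prss57-/- GMPs. In both genotypes 6 of the 7 mast cell markers tested, of 9 listed, and all 5 neutrophil granule markers were higher in GMPs. So were all 3 basophil and all 3 eosinophil markers, and all 5 erythroid and all 5 megakaryocyte markers were lower. Of the mast cell markers called, Cma1 and Tpsb2 had no read in wild-type CMPs. Of 5 macrophage markers tested, 4 were higher and 1 lower in wild-type GMPs, and 3 and 1 in Prss57-/- GMPs. Their part in the result was not tested.

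BMMCs were compared with GMPs, the cell type they were grown from. The sequenced GMPs were labelled female and the BMMCs male, so these were not the same animals. Mitf and Tfe3 were higher in BMMCs and Tfec was lower, in both genotypes, and Tfeb did not pass the test. In this comparison 71.4% of 16758 genes passed in wild-type cells, 35.3% higher and 36% lower, and 71% in Prss57-/- cells, 36.2% higher and 34.8% lower. Mitf was higher by 4.68 ± 0.27 on the log2 scale (SE, adjusted p = 2.97e-13) in wild-type and by 4.55 ± 0.27 (adjusted p = 4.35e-13) in Prss57-/- cells. The wild-type means were 27.8 and 1.02 normalized RPKM, a ratio of 27.2. Tfe3 was higher by 1.92 ± 0.22 (adjusted p = 3.33e-08) and 1.82 ± 0.22 (adjusted p = 7.13e-08). Tfec changed by -0.89 ± 0.36 (adjusted p = 0.032) and -1.14 ± 0.36 (adjusted p = 0.0078). The wild-type call was lost with RLE size factors (adjusted p = 0.051), and the Prss57-/- call when only its 2 groups were fitted (adjusted p = 0.075). Tfeb differed by 0.17 (95% interval -0.54 to 0.88) and 0.35 (-0.36 to 1.06). Without the 3 libraries lying apart, an alternative chosen after seeing the data, Tfeb passed in Prss57-/- cells, at 0.64 (adjusted p = 0.0007), as it did with all libraries in limma voom with sample weights, at 0.72 (adjusted p = 0.00011).

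Against CMPs, 75.4% of 16758 genes passed in wild-type cells (37.2% higher and 38.2% lower) and 77.1% in Prss57-/- cells (38% higher and 39.1% lower). All 4 members were higher in wild-type BMMCs: Mitf by 6.16 ± 0.29 (adjusted p = 1.05e-14), Tfe3 by 1.86 ± 0.22 (adjusted p = 4.31e-08), Tfeb by 0.95 ± 0.35 (adjusted p = 0.018) and Tfec by 0.86 ± 0.37 (adjusted p = 0.041). Under the study's stricter rule, an adjusted p under 0.01 with a fold of at least 2, which 53.4% of genes passed, 2 members did. The Tfec call was lost with limma voom (adjusted p = 0.062), with library-size scaling (0.183) and with no filter on low counts (0.059), and the Tfeb call with library-size scaling (0.131). In Prss57-/- cells Mitf, Tfe3 and Tfeb passed, at 5.98 ± 0.29, 1.95 ± 0.22 and 1.10 ± 0.35, and Tfec was 0.24 (95% interval -0.52 to 1.00). The Tfeb call there was lost with library-size scaling (edgeR adjusted p = 0.058) and when only its 2 groups were fitted (0.085). Without the 3 libraries lying apart, Tfec passed there too, at 0.62 (adjusted p = 0.0064).

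**Figure D2:**
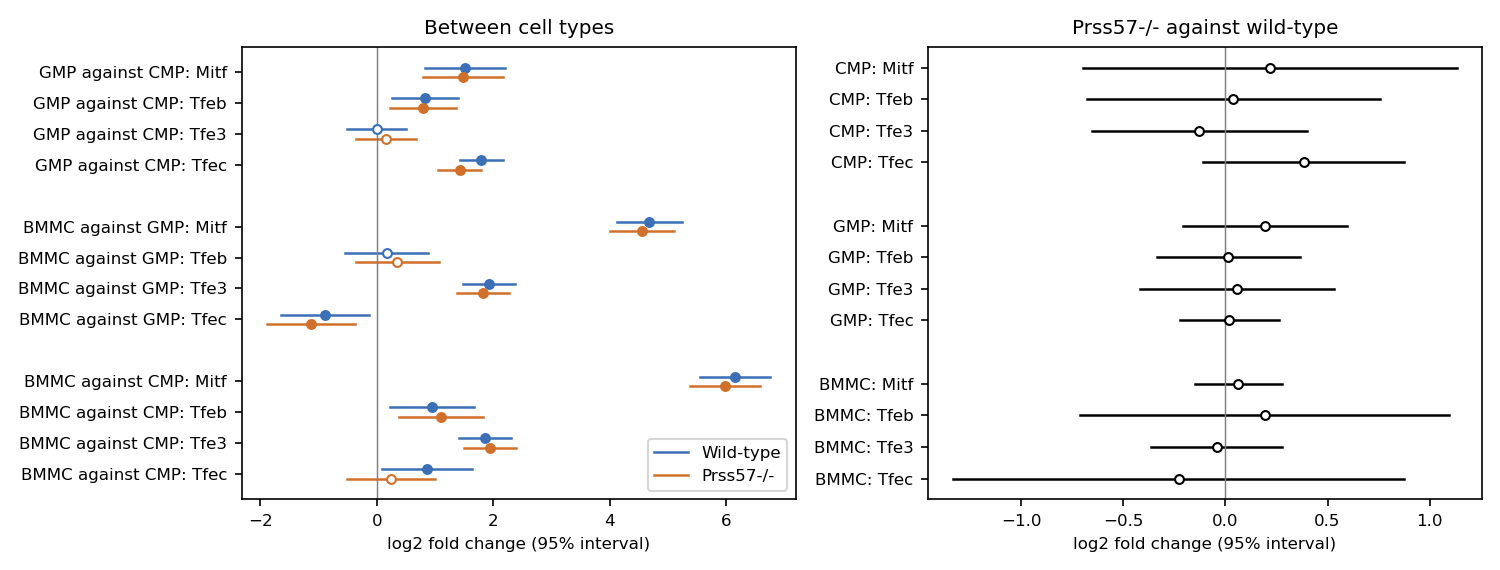
Log2 fold changes from edgeR with 95% intervals, between cell types in each genotype (left) and between genotypes within each cell type (right), with filled points where the adjusted p was under 0.05. Mitf stands at 4.68 in wild-type BMMCs against GMPs, and all 12 intervals between genotypes cross 0.

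Prss57-/- BMMC library 3 lay outside the range of the other 9 BMMC libraries for all 4 members, below it for 3 and above it for Mitf. Its Tfec was 3.73 normalized RPKM against 30.8 to 52.3, its Tfeb 1.38 against 4.89 to 10.5 and its Tfe3 19.5 against 28.4 to 35.4. Its Mitf was the highest, at 34.1 against 23.9 to 30.3. All 6 macrophage markers and 5 of 6 dendritic cell markers lay below the range of the other 9 in this library, with macrophage markers summed at 94.6, and of the 9 mast cell markers 6 lay above it, 1 within it and 2 below it. The latter were Tpsab1, at 13.3 against 513 to 1178, and Hdc, at 88.6 against 125 to 175. Of 5 megakaryocyte markers 3 lay below the range and 1 above it, and of 3 basophil markers 2 below and 1 above. Of 5 erythroid markers 2 lay below it and 2 above. How many of all genes lay outside this range is not given here. The part of these markers in the levels of the members was not tested.

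**Figure D3:**
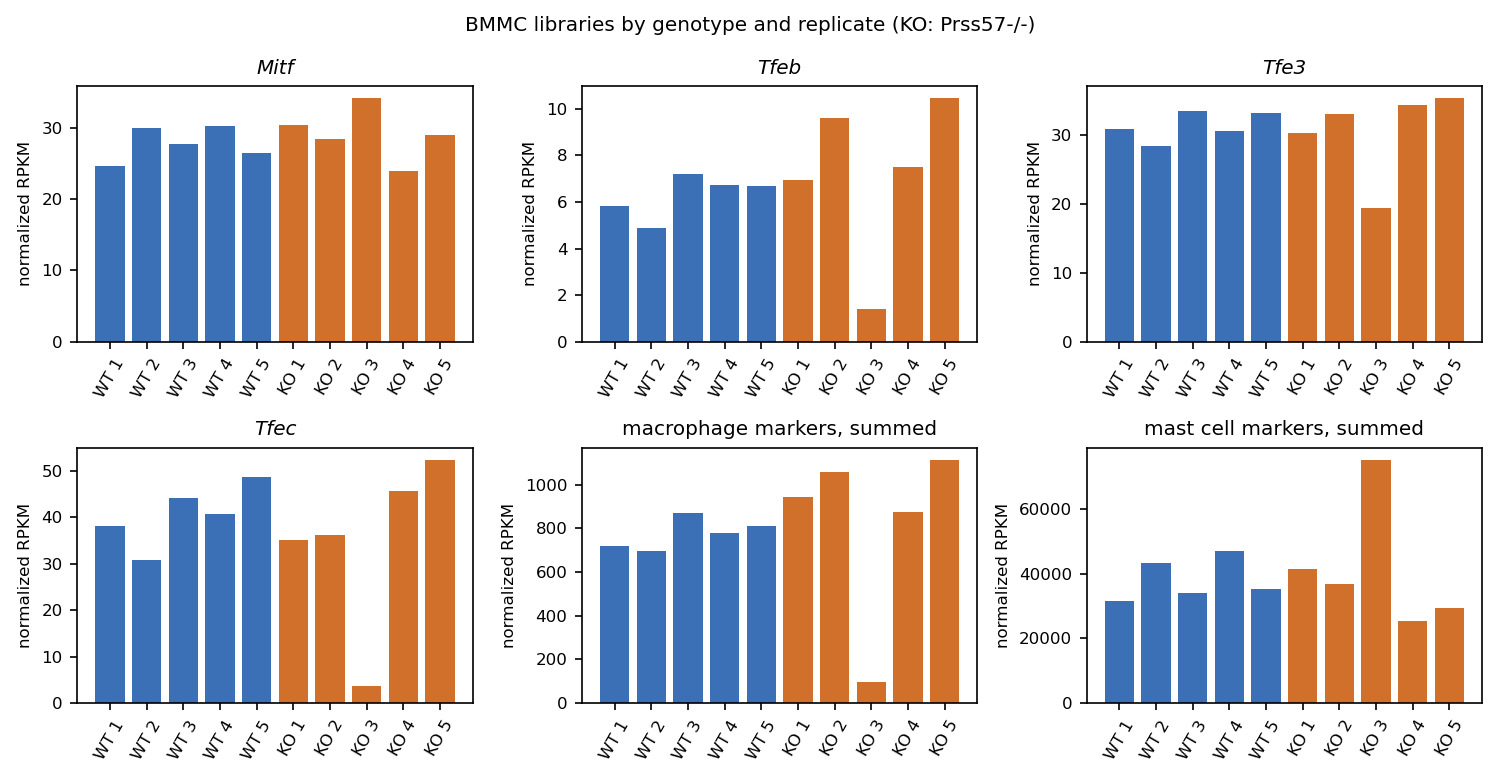
Normalized RPKM in each of the 10 BMMC libraries of Mitf, Tfeb, Tfe3 and Tfec, and summed over 6 macrophage and 9 mast cell markers, with wild-type in blue and Prss57-/- in orange. In Prss57-/- library 3, Tfec is 3.73 and the macrophage sum 94.6, while Mitf, at 34.1, and the mast cell sum, at 75392, are the highest.

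Within each cell type, wild-type and Prss57-/- libraries were compared to ask whether the loss of NSP4 changed the family. No member passed the test in any cell type by edgeR. The genes that did were 0.0136% of 14689 in GMPs (Prss57 and Palm), 0.0067% of 14916 in CMPs (Prss57) and 0% of 13938 in BMMCs, where limma and DESeq2 also called 0. An unadjusted p under 0.05 was given to 119 genes (0.81%) in GMPs, 76 (0.51%) in CMPs and 332 (2.38%) in BMMCs. The narrowest intervals were in BMMCs for Mitf, 0.06 (-0.15 to 0.28), and in GMPs for Tfec, 0.02 (-0.22 to 0.26). The widest was for Tfec in BMMCs, -0.23 (-1.33 to 0.87). Without library 3 the mean of Tfec in Prss57-/- BMMCs was 42.3 ± 8.21 (SD, n = 4), against 40.4 ± 6.66 (n = 5) in wild-type BMMCs. In CMPs Tfec differed by 0.38 (-0.11 to 0.87), and the exact permutation test gave p = 0.114. The smallest exact permutation p over all 12 tests between genotypes was this one.

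The genes around the family were described by lists, which were chosen with earlier results of these data known. Those that control MiT proteins at the lysosome were 22 genes of mTORC1, the Rag and folliculin complexes and calcineurin. In wild-type BMMCs against GMPs, 10 were higher and 5 lower of 22 tested, beside 35.3% higher and 36% lower of all genes, with a median log2 fold change of 0.35 against -0.03 over all genes. In Prss57-/- cells 11 were higher and 5 lower, beside 36.2% and 34.8% of all genes. Fnip1 and Fnip2, the partners of folliculin, rose by 2.33 (adjusted p = 3.81e-12) and 3.07 (adjusted p = 1.99e-08) in wild-type cells. Fnip1 was 3.84 to 4.42 in wild-type GMPs and 18.2 to 26.3 in BMMCs. Rragc, the Rag GTPase whose promoter is shown above, rose by 2.05 (adjusted p = 2.56e-15), from 25.2 to 28.7 in GMPs to 107 to 127 in BMMCs. Rragd, another Rag GTPase, had 9 reads over the 4 wild-type GMP libraries and 1859 over the 5 BMMC libraries. Rragb fell by 0.76 (adjusted p = 0.00059). In GMPs against CMPs 6 of 21 were higher and 1 lower in wild-type cells, beside 15.4% and 12.5% of all genes, and 5 and 3 in Prss57-/- cells, beside 16.9% and 18.8%. Among them were Ppp3ca, a catalytic subunit of calcineurin, higher by 1.35 (adjusted p = 0.00055) and Rragb at -1.37 (adjusted p = 6.31e-05) in wild-type cells.

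Among 11 partners and inhibitors of MITF, 7 were higher and 3 lower in wild-type BMMCs against GMPs, beside 35.3% and 36% of all genes, with a median of 1.2. In Prss57-/- cells 7 were higher and 4 lower, beside 36.2% and 34.8%. Kit, the SCF receptor that signals to MITF, rose by 3.19 (adjusted p = 4.92e-09), from 40.7 to 59.4 in wild-type GMPs to 392 to 734 in BMMCs. Fhl2, a LIM-domain cofactor, rose by 3.53 (adjusted p = 7.2e-09), and the acetyltransferase Crebbp by 1.55 (adjusted p = 3.63e-06). Hint1, a repressor of MITF, fell by 1.26 (adjusted p = 0.00067). In GMPs against CMPs 3 of 11 were higher in each genotype and none lower, beside 15.4% of all genes higher in wild-type and 16.9% in Prss57-/- cells.

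Of 13 mast cell genes listed as activated by MITF, 11 were higher in BMMCs than in GMPs in each genotype and none was lower. Of all genes, 35.3% were higher and 36% lower in wild-type cells, and 36.2% and 34.8% in Prss57-/- cells. The list shares members with the mast cell markers, and Kit is also in the list of MITF partners. Tph1, the enzyme of serotonin synthesis, had 0 reads in all 8 GMP libraries and 334 to 627 normalized RPKM in wild-type BMMCs, at least 31022-fold higher against a floor of 3 counts per library. Tpsab1, a tryptase, also had 0 reads in GMPs and was at least 12593-fold higher in wild-type BMMCs. Hpgds rose by 8.89 (adjusted p = 2.07e-12) and Gzmb, granzyme B, by 3.12 (adjusted p = 2.64e-05). The fitted median of the list was 9.69 in wild-type cells, and 7.69 with the 4 genes at 0 in wild-type GMPs set to their bounds. Hdc and Itga4 did not pass. Between the progenitors, 4 of the 8 genes tested were higher in GMPs in each genotype, beside 15.4% (wild-type) and 16.9% (Prss57-/-) of all genes. None was lower, beside 12.5% and 18.8%.

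Of 45 CLEAR genes of lysosome and autophagy, 44 were tested, and 39 were higher and 1 lower in wild-type BMMCs against GMPs, beside 35.3% and 36% of all genes. The median was 1.06, against -0.03 over all genes. In Prss57-/- cells 37 were higher and 1 lower, beside 36.2% and 34.8% of all genes. Without the 3 libraries lying apart, 41 were higher and 1 lower there. Flcn, Fnip2, Rragc, Rragd and Mcoln1 are also in the list that controls MiT proteins at the lysosome, so the counts of the lists are not separate. Ctsd, cathepsin D, rose by 4.62 (adjusted p = 5.29e-15), from 159 to 182 in wild-type GMPs to 3347 to 5269 in BMMCs. Clcn7, Lamp1 and Cln3, whose promoters are shown above, rose by 2.00, 1.75 and 1.74. Gpnmb had 44 reads over the wild-type GMP libraries and 265872 over the BMMC libraries. Macrophages also express lysosomal genes, and all 6 macrophage markers were higher in BMMCs too. Their part in the CLEAR result was not tested. In GMPs against CMPs, 20 were higher and 1 lower of 43 in wild-type cells, beside 15.4% and 12.5% of all genes, and 22 and 2 in Prss57-/- cells, beside 16.9% and 18.8%. Neu1, a lysosomal sialidase, rose by 2.13 (adjusted p = 4.69e-07), from 6.87 to 10.2 in wild-type CMPs to 29.9 to 35.5 in GMPs.

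**Figure D4:**
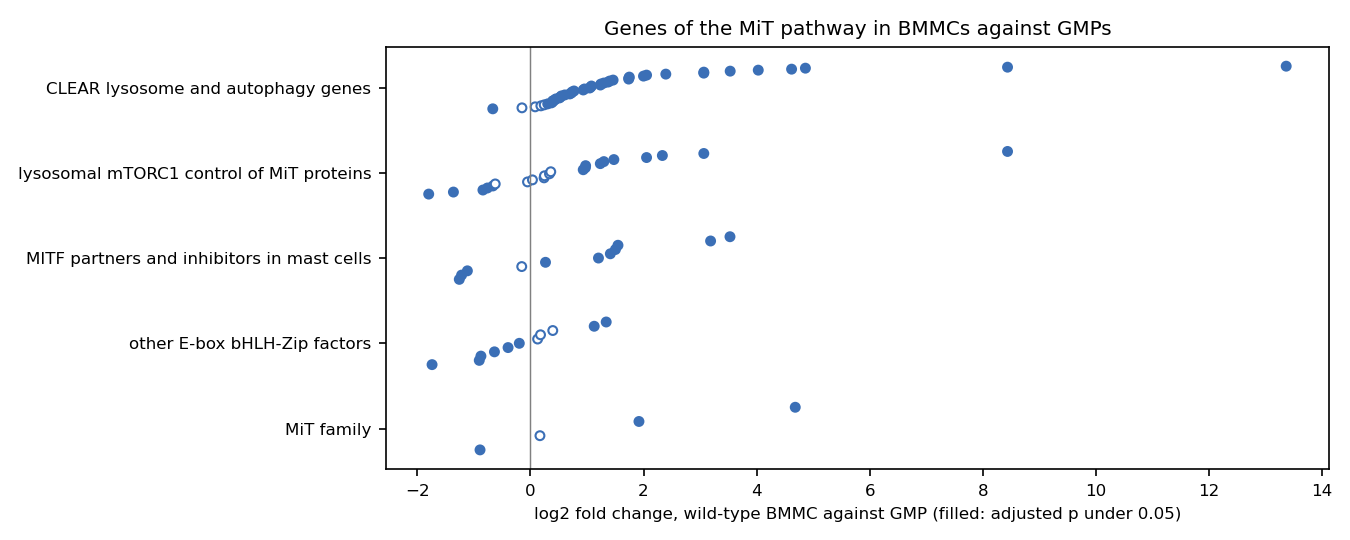
Log2 fold changes in wild-type BMMCs against GMPs of the genes of 5 lists, 1 point a gene, filled where the adjusted p was under 0.05. Of 44 CLEAR genes 39 lie to the right of 0 as filled points, and the points beyond 8 are Rragd, drawn in both lists that hold it, and Gpnmb, both with few reads in GMPs.

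The pigment cell genes stayed near 0. Tyr, Tyrp1 and Trpm1 had 0 reads in all 26 libraries, Slc45a2 had none either, Dct had 2 reads in 1 wild-type GMP library, and Mlana 8 in 1 Prss57-/- CMP library. Only Pmel of the 7 genes had enough reads for a test. It was lower in Prss57-/- BMMCs than in GMPs (-0.69, edgeR adjusted p = 0.029) and CMPs (-1.04, adjusted p = 0.0016), and in wild-type cells it was -0.34 and -0.33 and did not pass. In BMMCs, where Mitf was highest, no gene of the list but Pmel had a read, which leaves a floor of 3 counts per library, and Pmel was 0.35 to 0.70 normalized RPKM in wild-type BMMCs.

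Of 11 other E-box factors of the same protein class, 2 were higher and 6 lower in wild-type BMMCs against GMPs, with a median of -0.20, and 4 and 5 in Prss57-/- cells, with a median of -0.17. Of all genes 35.3% were higher and 36% lower in wild-type, and 36.2% and 34.8% in Prss57-/- cells. Myc fell by 1.74 (adjusted p = 3.46e-07) and Usf1 by 0.91 (adjusted p = 1.92e-06), and the MYC antagonists Mxd1 and Mnt rose by 1.34 (adjusted p = 4.86e-05) and 1.13 (adjusted p = 3.29e-05). In GMPs against CMPs, 3 of 11 were higher in each genotype, where 15.4% (wild-type) and 16.9% (Prss57-/-) of all genes were.

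The genes most like each member over the 26 libraries were found by Pearson's r of log2 CPM, given as a description. The points share cell type, sex and run. Mitf was most like Fnip1 (r = 0.99), Tmem104 and Csf2rb, a subunit of the IL-3 receptor. Tfeb was most like Prex1 (r = 0.97), Hlx and Alpk1, Tfe3 like Sbf2 (r = 0.99), Cdc42bpb and Myo1c, and Tfec like Anxa3 (r = 0.98), Ttc39c and Tmem50b. Over the 16 progenitor libraries Tfec was again most like Anxa3 (r = 0.99), followed by Msrb1 and Slc31a2. Mitf was there most like Ppp1r21 (r = 0.97), Cask and Rassf8, Tfeb like Map7d1 (r = 0.98), Stim2 and Rtl6, and Tfe3 like Rps6ka4 (r = 0.92), Akt2 and Pprc1.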

How the data were processed

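RNA sequencing was analysed in 26 libraries. Per the study's methods, a stranded total RNA kit was used, reads were aligned to GRCm38 with GSNAP (also in the submitters' processing notes) in HTSeqGenie, and uniquely aligned reads in exons were counted. The authors deposited counts per gene, without normalization, and normalized RPKM, equal to the count over a constant per gene and a size factor. The use of strand in counting is not given in the sources used here. The constants were not proportional to GENCODE M21 exon lengths. Of 52636 genes, 52489 were matched to M21.

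Reads counted on genes totalled 35501671 to 51497962 in GMPs, 32078404 to 53264762 in CMPs and 18627626 to 28647216 in BMMCs. Floors of 3 counts cover counting error only.

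Counts were tested with edgeR 4.0.16 in R 4.3.3 (TMM, filterByExpr, robust quasi-likelihood, Benjamini-Hochberg adjustment over all genes tested, call at adjusted p under 0.05), on 16 libraries for GMPs against CMPs, within a cell type for genotype, and on 26 libraries for BMMCs against progenitors. limma 3.58.1 and DESeq2 1.42.0 were alternatives. Permutation tests used scipy 1.17.1 in Python 3.11.15. The fits were tested on simulated data with 200 changed genes. Of these, 145 to 180 were found, with 6 to 10 wrong calls. The simulated data held no library that lay apart, and only 200 genes were changed where 13802 to 16387 were tested. Between BMMCs and progenitors 71% to 77.1% of genes passed, a case that the simulation does not cover. The study describes its GMP and BMMC sequencing samples as biological replicates, and the labels do not name the animals, so p-values measure the spread between libraries.

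The members and lists were chosen with earlier results of these data known. Named were the 4 members, up to 4 genes per list with the largest wild-type change among those called the same way in both genotypes, genes called between genotypes, and the 3 genes most like each member. Hint1, Hpgds, Itga4, Clcn7, Lamp1, Cln3, Palm and the pigment genes, and Rragb, Gzmb and Hdc in BMMCs, were named after their values were seen. A gene that the rule also named is not reported here.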

Additional observations from a re-analysis of the deposited data

Results flagged for a closer look

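In 24 groups of 4 or 5 libraries (each member in each group), the gap of the lowest or highest library to its neighbour was set against the group's range (Dixon's test, limits 0.829 for 4 and 0.71 for 5 libraries). Chance flags about 1 in 20 groups. There were 2 such libraries. Tfeb in wild-type GMP library 1 was 4.02 normalized RPKM, below the other 3 at 5.55 to 5.77. Tfec in Prss57-/- CMP library 1 was 18.6, below the other 3 at 30.4 to 31.5.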

How the results depend on the processing

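All calls of Mitf and Tfe3 at an adjusted p of 0.05 held under each alternative run. Members called in wild-type BMMCs against CMPs went from 4 to 2 under the study's rule and with library-size scaling. Under the study's rule Tfeb was also not called in GMPs against CMPs in either genotype, nor Tfec in wild-type BMMCs against GMPs. Leaving out 1 library at a time gave 2 to 3 members called in GMPs against CMPs in each genotype, 2 to 3 (wild-type) and 3 to 4 (Prss57-/-) in BMMCs against GMPs, 3 to 4 in BMMCs against CMPs, and 0 between genotypes. Genes called in GMPs against CMPs went from 4437 to 10222 in wild-type cells with sample weights and 7089 without the 3 libraries lying apart, and in Prss57-/- cells from 5670 to 9106 with sample weights and 3222 with only 2 groups. Library-size scaling moved the share higher among these calls from 55.2% to 29.7% and from 47.3% to 31.3%. DESeq2 called 5 genes between genotypes in GMPs and 5 in CMPs.

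Signs changed for values that were not called, and the cause was not tested. In GMPs against CMPs (wild-type), Tfe3 was 0.25 with voom sample weights and 0.18 without the 3 libraries. Between genotypes these 2 settings gave -0.18 and -0.092 for Tfeb and -0.18 and -0.14 for Tfe3 in GMPs, and 0.037 and 0.081 for Tfe3 in BMMCs. In BMMCs, leaving out the 3 libraries gave -0.00071 for Mitf and 0.061 for Tfec, and voom gave -0.0063 for Tfeb. In CMPs voom gave -0.016 for Tfeb. Tfeb in wild-type BMMCs against GMPs was -0.036 with library-size scaling, and Tfec in Prss57-/- BMMCs against CMPs -0.079 with voom. The genotype difference was 0.018 for Mitf with voom and 0.016 with library-size scaling, 0.010 and 0.0011 for Tfeb, and -0.13 for Tfe3 without the 3 libraries. On log2 values the mean difference of Tfeb between genotypes was -0.057 in CMPs and -0.058 in BMMCs, and that of Tfec in Prss57-/- BMMCs against CMPs -0.082.

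Leaving out single libraries gave -0.12 to 0.20 for Tfe3 in wild-type GMPs against CMPs. Between genotypes it gave -0.10 to 0.089 (Tfeb), -0.14 to 0.17 (Tfe3) and -0.036 to 0.094 (Tfec) in GMPs, -0.13 to 0.28 (Tfeb) in CMPs, and -0.00071 to 0.13 (Mitf), -0.10 to 0.081 (Tfe3) and -0.42 to 0.061 (Tfec) in BMMCs. For the genotype difference it gave -0.31 to 0.17 (Mitf), -0.28 to 0.14 (Tfeb) and -0.029 to 0.46 (Tfe3). The Tfeb call in GMPs against CMPs was lost without wild-type CMP library 1 or 2 or GMP library 2, 3 or 4 (edgeR adjusted p up to 0.103), and without Prss57-/- CMP library 4 or GMP library 1 or 3 (up to 0.0956). The Tfec call in wild-type BMMCs was lost against GMPs without BMMC library 1, 2 or 4 or GMP library 1 (up to 0.0762), and against CMPs without BMMC library 3, 4 or 5 or CMP library 1, 2 or 3 (up to 0.11). Without Prss57-/- BMMC library 3, Tfeb passed in Prss57-/- BMMCs against GMPs (edgeR adjusted p = 0.023) and Tfec against CMPs (0.0059).

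Labels share replicate numbers, and the deviations of same-numbered libraries had mean correlations of 0.164 (wild-type) and 0.218 (Prss57-/-) in GMPs against CMPs and 0.188 between genotypes in CMPs, against -0.064, -0.073 and -0.071 for other pairs. In the other 6 comparisons the mean was -0.070 to 0.042. In each comparison at least 1 pair was under 0.1 (lowest -0.023, 0.0064 and -0.21 in these), so the numbers were not taken to pair the libraries. With the replicate block, 4354 and 5223 genes were called in GMPs against CMPs, 3 members in each. Tfeb between genotypes in CMPs was -0.071, the genotype difference of Mitf 0.021, and the Tfec call in wild-type BMMCs against CMPs was lost (edgeR adjusted p = 0.0825).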
